A study of Homo sapiens with 41 samples.

Results

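CPSF1, CPSF2, CPSF3, CPSF4, CSTF1, CSTF2, CSTF3, PCF11 and XRN2 encode parts of the machinery that cuts and polyadenylates the nascent transcript and releases RNA polymerase II (Pol II) from the template. These 9 genes were chosen by name from the 19970 protein-coding genes of the autosomes and chromosome X in the RefSeq table. No measured value entered the rule, but the choice was made with earlier results of these data known. For each gene the share of its span, and of the 10 kb on either side, that lay in Pol II broad regions was computed in every library. Peaks of CTCF (a zinc finger protein that blocks the extrusion of chromatin loops) and of RAD21 (the cohesin kleisin) were counted in the same windows.

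As background, the cleavage and polyadenylation specificity factor (CPSF) recognises the polyadenylation signal and cuts the RNA. The cleavage stimulation factor (CstF) binds the U- or GU-rich element past the cut site, and PCF11, a subunit of cleavage factor II, also contacts the C-terminal domain of Pol II. After the cut, the exonuclease XRN2 degrades the RNA still attached to the polymerase from its free 5' end, a step of the torpedo model of termination. Termination is known to be sensitive to hyperosmotic stress, under which many human genes are transcribed past their ends.

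The cells were T47D, an established human line of luminal breast carcinoma, held first in steroid-depleted and then in serum-free medium. Pol II was mapped after 1 h in 110 mM NaCl (2 libraries) and without stress (2 libraries). CTCF was mapped without stress (3 libraries), at 7.5 min (2), 30 min (1) and 1 h (3) of NaCl, and after 1 h of NaCl plus 1 h in isotonic medium (1), which is called recovery here. RAD21 was mapped without stress, at 1 h of NaCl and in recovery (3 libraries each). For both proteins there was also 1 library each of recovery, of 1 h of NaCl and of unstressed cells after 2 h of pre-treatment with triptolide at 500 nM, which blocks the start of transcription. All 4 Pol II libraries belong to the first of 2 submissions, called set 1, while replicate 3, the CTCF recovery library and the triptolide libraries belong to set 2. In 6 of the 12 libraries of set 2 the title and the pre-treatment tag disagree over triptolide, and the titles were taken, so values of triptolide and of set 2 libraries hold only if the titles are right. Every list was called on 1 library of 1 cell line, nothing in the labels shows that replicates came from separate cultures, and read totals are not given, so the depth is unknown.

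The lists differ in length in ways that touch each count below. The Pol II lists held 107396 and 216968 regions at 1 h, covering 212.3 and 261.7 Mb, and 105302 and 88046 regions without stress, covering 291.9 and 257.2 Mb. The deposited -log10 q was below 1.3 (q above 0.05) in 80.05 and 92.37% of the 1 h regions and in 50.04 and 48.49% of the unstressed regions. CTCF lists held 22018 to 35374 peaks at 1 h and 38571 to 59843 without stress, and RAD21 lists 4761 to 7843 at 1 h and 13762 to 24931 without stress. Of 9 luminal markers, 2 and 4 had most of their span in Pol II regions at 1 h and 7 and 6 without stress, among them GATA3, FOXA1, KRT19, PGR and CDH1, while KRT18 was at 0 in both unstressed libraries. Of 12 markers of blood, fibroblast, muscle, neuron and liver, 1 blood marker in each 1 h library and none in the unstressed libraries did.

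Sequences just before the start of transcription are shown for 5 of the genes, because peaks or Pol II regions described below lie over them. In PCF11 this lies in the left part of an unstressed Pol II region that spans the whole gene. The RAD21 peak of the unstressed triptolide library also covers it, while the other RAD21 peaks near that start lie outside it. In CSTF3 and XRN2 CTCF peaks fall on the start, in CSTF2 the start held the only Pol II region of the gene, and in CSTF1 it held the 1 h Pol II region with the highest deposited -log10 q in any of the 9 windows. Each line gives the 250 bases before the start from the RefSeq promoter table of GRCh38.p14, 5' to 3' on the strand of the gene. Capitals mark the cAMP response element TGACGTCA, the GC box GGGCGG, the CCAAT box CCAAT and the ETS motif CCGGAAG, on either strand, and no such matches overlap each other. The windows are chr11:83156881-83157130 on the plus strand for PCF11, chr20:56392129-56392378 on the plus strand for CSTF1, chrX:100820141-100820390 on the plus strand for CSTF2, chr11:33161481-33161730 on the minus strand for CSTF3 and chr20:21303081-21303330 on the plus strand for XRN2.
PCF11: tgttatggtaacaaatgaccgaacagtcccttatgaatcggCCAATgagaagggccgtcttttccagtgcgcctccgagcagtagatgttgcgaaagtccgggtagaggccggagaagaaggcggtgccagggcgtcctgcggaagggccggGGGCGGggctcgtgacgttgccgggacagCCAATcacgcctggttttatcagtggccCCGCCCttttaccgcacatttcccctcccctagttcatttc
CSTF1: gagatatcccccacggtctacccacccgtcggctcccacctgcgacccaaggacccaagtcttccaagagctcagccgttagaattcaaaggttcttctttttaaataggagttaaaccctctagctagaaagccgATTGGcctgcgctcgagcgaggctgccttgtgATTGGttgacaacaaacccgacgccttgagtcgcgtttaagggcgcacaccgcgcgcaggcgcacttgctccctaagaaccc
CSTF2: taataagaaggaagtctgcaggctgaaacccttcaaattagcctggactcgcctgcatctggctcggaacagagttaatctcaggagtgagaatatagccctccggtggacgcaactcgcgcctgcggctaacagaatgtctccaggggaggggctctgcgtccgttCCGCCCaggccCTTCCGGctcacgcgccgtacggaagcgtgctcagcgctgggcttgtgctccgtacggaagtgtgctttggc
CSTF3: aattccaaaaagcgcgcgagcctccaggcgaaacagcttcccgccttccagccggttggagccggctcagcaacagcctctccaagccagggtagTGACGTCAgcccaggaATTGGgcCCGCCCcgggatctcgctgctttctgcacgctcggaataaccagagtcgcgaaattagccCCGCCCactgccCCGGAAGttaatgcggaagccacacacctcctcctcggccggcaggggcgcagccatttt
XRN2: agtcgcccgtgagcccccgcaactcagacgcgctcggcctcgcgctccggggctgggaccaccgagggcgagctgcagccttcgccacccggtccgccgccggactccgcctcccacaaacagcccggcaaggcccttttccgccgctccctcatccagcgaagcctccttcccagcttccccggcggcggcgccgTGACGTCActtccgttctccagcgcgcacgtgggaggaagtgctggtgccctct

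Promoter windows were found for 8 of the 9 genes. TGACGTCA occurred in CSTF3, at position -155 from the start, and in XRN2, at position -54, and 1.65% of all 35116 promoter windows of this length hold it on either strand. GGGCGG occurred in CSTF3, PCF11 and CSTF2 (42.6% of all windows), CCAAT in CPSF4, CSTF3, PCF11, CPSF2 and CSTF1 (32.0%), and CCGGAAG in CPSF3, CSTF3 and CSTF2 (8.52%). A CTCF core motif (CC, any 3 bases, AGG, any 1 base and GGC, in 4.01% of windows) and TATAAA (10.7%) were found in none of the 8. CSTF3 was therefore the gene with the most of these motifs, carrying 4 of the 6 searched.

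Pol II regions covered less of every one of the 9 genes in both 1 h libraries than in both unstressed libraries, and the size of the difference split the genes. Over CPSF4, CSTF1, PCF11, CSTF3 and CPSF1 the difference in mean coverage was -97.3 to -68.4 percentage points, over CPSF2 it was -36.3 points, and over XRN2, CPSF3 and CSTF2 it was -9.6 to -1.4 points. That both 1 h libraries lay below both unstressed ones held for 7031 of 18144 genes tested (38.8%), and the reverse for 3218 (17.7%). All 9 genes passed the filter of a mean above 0. By limma with Benjamini-Hochberg adjustment over all genes tested, 1090 genes (6.01%) were lower and 172 (0.948%) higher at 1 h at an adjusted p of 0.05. CPSF4, CSTF1 and CSTF3 were among the genes called lower and none of the 9 was called higher. The median difference was -68.4 points over the 9 genes, beside -3.9 points over all genes tested.

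The differences changed when scaled to the mean coverage of gene spans in each library. Over all genes tested that mean was 17.4 and 18.7% at 1 h and 31.1 and 30.2% without stress. With each library divided by its mean coverage over all genes, the median difference of all genes was 0.18 points, against -3.92 as deposited, and 6 of the 9 genes still had both 1 h libraries below both unstressed ones. On that scale this held for 5268 of all genes (29.0%), with 4836 the other way. CPSF1, CPSF3 and XRN2 then overlapped between groups. There limma called 0 of 18144 genes, with 4578 at an unadjusted p under 0.05, and the adjusted p by limma was 0.0531 for CPSF4, 0.0718 for CSTF1 and 0.0787 for CSTF3.

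**Figure D1:**
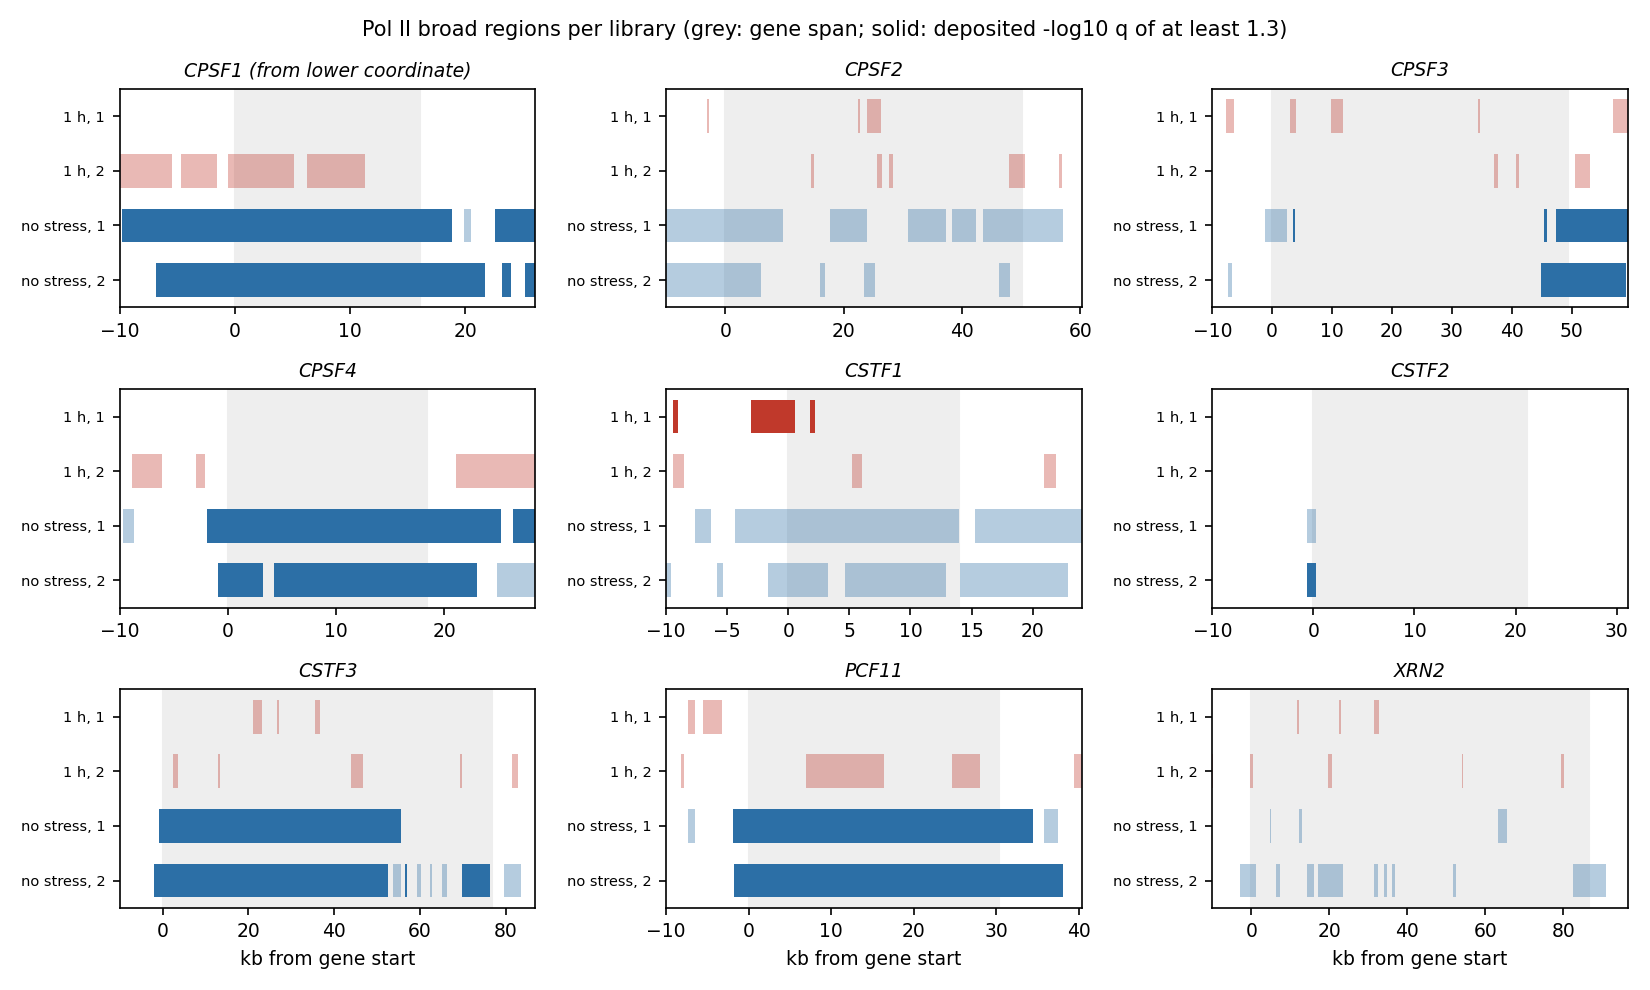
Pol II broad regions over each gene and 10 kb on either side in the 1 h NaCl libraries (red, upper 2 rows) and the unstressed libraries (blue, lower 2 rows), with the distance in kb from the gene start on the x axis, from the lower coordinate for CPSF1. Solid bars have a deposited -log10 q of at least 1.3 and pale bars do not. Solid bars occur at 1 h at CSTF1 in replicate 1 and at no other gene, and CPSF2 and XRN2 have pale bars in all 4 libraries.

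Among the CPSF genes, CPSF4 showed the widest gap. CPSF4 (chr7:99438943-99457373), whose zinc finger protein reads the polyadenylation signal together with WDR33, had 0.0 and 0.0% of its 18.4 kb covered at 1 h, against 100.0 and 94.7% without stress. The groups lay at opposite ends of the scale, and the difference was -97.3 points (SE 6.7, adjusted p 0.0284 by limma, 2 libraries each). The unstressed regions over CPSF4 all had a -log10 q of at least 1.3. They ran from 1.95 kb before the start to 25.21 kb in replicate 1, past the gene end, and began 0.9 kb before the start in replicate 2. PTCD1 starts 145 bp away and ATP5MF lies 822 bp past the other end, and a read-through gene of both, ATP5MF-PTCD1, overlaps CPSF4, so the regions cannot be assigned to CPSF4 alone.

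CPSF1 (chr8:144393231-144409335), the large scaffold of CPSF, was covered at 0.0 and 63.2% at 1 h and at 100.0 and 100.0% without stress. The 2 libraries at 1 h disagreed, mean coverage was 31.6 ± 44.7% at 1 h and 100.0 ± 0.0% without stress (SD, n = 2 each), and the difference of -68.4 points (SE 26.0) was not called (adjusted p 0.221 by limma). None of the 1 h coverage came from regions with a -log10 q of at least 1.3, whereas all of the unstressed coverage did. ADCK5 overlaps CPSF1, and the strand of CPSF1 was not in the promoter table, so its flanks are given by side. On the side of higher coordinates coverage was 0.0 and 0.0% at 1 h and 68.7 and 73.4% without stress (-71.0 points, SE 9.1, adjusted p 0.0422 by limma over the sides of all genes). SLC39A4 lies 3079 bp past CPSF1 on that side, so this coverage cannot be assigned to CPSF1 alone. On the side of lower coordinates coverage was 0.0 and 82.8% at 1 h and 98.1 and 68.6% without stress, and the groups overlapped.

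CPSF2 (chr14:92121969-92172145), the inactive partner of the nuclease, was covered at 5.6 and 8.7% at 1 h and at 66.3 and 20.7% without stress. The unstressed replicates differed more from each other than the lower of them differed from the 1 h libraries, and the difference of -36.3 points (SE 19.1) was not called (adjusted p 0.335 by limma). The 10 kb before its start were covered at 2.4 and 0.0% at 1 h and 100.0 and 100.0% without stress (-98.8 points, SE 9.6, adjusted p 0.0598 by limma). That flank holds NDUFB1, which starts 263 bp from CPSF2 on the opposite strand. None of these regions, in the gene or before it, reached a -log10 q of 1.3.

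CPSF3 (chr2:9423654-9473101), the endonuclease that makes the cut, had little coverage in any library. It was covered at 6.9 and 2.4% at 1 h and at 10.7 and 9.2% without stress, a difference of -5.3 points (SE 2.9, adjusted p 0.354 by limma). Without stress its last part lay in regions that began 47.46 and 44.9 kb from the start and ran on over IAH1, which starts 711 bp past the gene. At the start of CPSF3, 85 bp from ITGB1BP1, a region was present in replicate 1 without stress and in no other Pol II library.

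The 3 CstF genes spread over the whole range. CSTF3 (chr11:33084584-33161480), the dimeric scaffold of the complex, was covered at 5.0 and 6.1% of its 76.9 kb at 1 h and at 72.2 and 83.6% without stress. The groups did not overlap and the difference was -72.3 points (SE 7.9, adjusted p 0.0399 by limma). Without stress, single regions ran from 0.75 kb before the start to 55.55 kb in replicate 1 and from 2.06 kb before the start to 52.65 kb in replicate 2, both with a -log10 q above 1.3. CSTF3 has no other protein-coding gene within 10 kb, so for this gene the coverage overlaps no neighbour in the table. At 1 h the regions in the gene were 0.3 to 2.7 kb wide, had -log10 q of at most 0.6, and did not include the start. With 1 library left out, and the lone library assumed to vary like the others, the call was lost without replicate 1 at 1 h (adjusted p 0.0817 by limma, -71.8 points) and without replicate 2 at 1 h (0.0879, -72.9 points).

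CSTF1 (chr20:56392379-56406362), the WD repeat subunit, was covered at 6.8 and 5.6% at 1 h and at 100.0 and 82.0% without stress (-84.8 points, SE 9.5, adjusted p 0.0425 by limma). That difference rests on regions of low confidence: with regions of -log10 q of at least 1.3 alone, coverage was 6.8 and 0.0% at 1 h and 0.0 and 0.0% without stress, 3.4 points higher at 1 h. The 6.8% came from replicate 1 at 1 h, where a region from 3.07 kb before to 0.59 kb after the start had a deposited fold of 2.97 and a -log10 q of 9.9, and another at 1.81 to 2.17 kb had a fold of 3.49. Replicate 2 at 1 h had no region at the start. AURKA lies 164 bp away, so the start region lies over both genes. The span call was also lost without replicate 1 (adjusted p 0.111 by limma) and without replicate 2 (0.121) at 1 h.

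CSTF2 (chrX:100820391-100841520), the RNA-binding subunit, had 0.0 and 0.0% at 1 h and 1.4 and 1.4% without stress (-1.4 points, SE 0.5, adjusted p 0.202 by limma). All of the unstressed coverage was a single region over the start, from 0.63 kb before to 0.29 kb after it in replicate 1 and from 0.67 kb before to 0.3 kb after it in replicate 2. Its -log10 q was 0.15 in replicate 1 and 17.87 in replicate 2, where the fold was 4.3. No region was called in the rest of the gene or in either flank in any library, apart from the part of the start region that lies before the start.

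PCF11 (chr11:83157131-83187451) was covered from end to end without stress. Its 30.3 kb were covered at 0.0 and 41.8% at 1 h and at 100.0 and 100.0% without stress, a difference of -79.1 points (SE 18.0, adjusted p 0.105 by limma) that was not called at this spread between the 1 h libraries. The unstressed regions began 1.86 and 1.82 kb before the start and ended 34.4 and 38.05 kb after it, beyond the gene end in both replicates, with -log10 q of 3.77 and 3.7. At 1 h, replicate 1 had no region in the gene, and replicate 2 had 2 inside it, at 6.99 to 16.34 kb and 24.67 to 28.02 kb, with -log10 q of 0.01 and 0.14. With regions of -log10 q of at least 1.3 alone, PCF11 had 0.0% in both 1 h libraries and 100.0% in both unstressed ones, and CPSF1 gave the same values. Leaving out 1 h replicate 1 gave -58.2 points for PCF11 and -36.8 for CPSF1, and leaving out replicate 2 gave -100.0 for both. These fits are no test, because both unstressed libraries are at the ceiling of 100.0% and leave no spread.

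XRN2 (chr20:21303331-21389825) had little coverage in 3 of the 4 libraries. Coverage was 2.7 and 2.7% of its 86.5 kb at 1 h and 3.9 and 20.7% without stress (-9.6 points, SE 7.0, adjusted p 0.472 by limma). A region lay over the start in replicate 2 at 1 h (0.31 kb before to 0.39 kb after it) and in replicate 2 without stress (2.77 kb before to 1.2 kb after it), and in neither replicate 1. Without the unstressed replicate 1 the difference was -18.0 points. No region over XRN2 reached a -log10 q of 1.3 in any library.

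**Figure D2:**
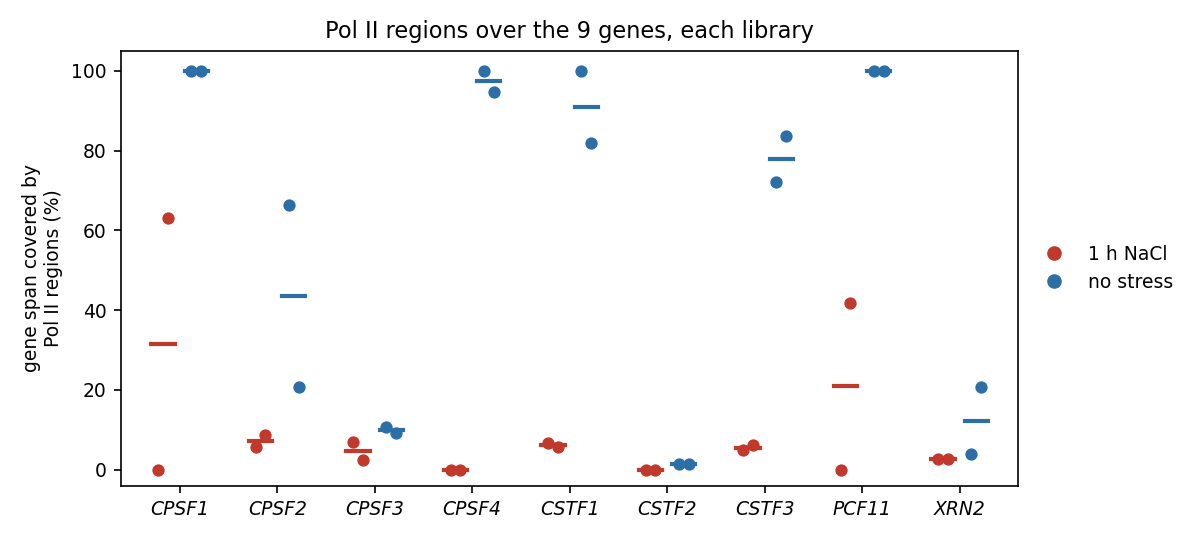
Percent of the gene span covered by Pol II regions for the 9 genes, with the 1 h NaCl libraries (red) left of the unstressed libraries (blue), 1 point per library and a bar at the mean of 2. The red points lie below the blue ones at every gene, and the 1 h libraries of CPSF1 (0.0 and 63.2%) and PCF11 (0.0 and 41.8%) stand apart from each other.

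In the 2 kb around the start, both 1 h libraries were below both unstressed libraries at 6 of the 8 genes with a known strand, beside 36.1% of the 12584 genes with a value there. This window was added after the data had been seen. At 1 h it held no Pol II region at PCF11, CPSF2, CPSF3, CPSF4, CSTF2 and CSTF3. CSTF1 was covered at 79.3 and 0.0% at 1 h and 100.0 and 100.0% without stress, and XRN2 at 0.0 and 34.8% at 1 h and 0.0 and 100.0% without stress. Regions of -log10 q of at least 1.3 left 5 genes with both 1 h libraries below both unstressed ones over the span (PCF11, CPSF1, CPSF3, CPSF4 and CSTF3), beside 41.2% of 13911 genes.

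The 10 kb past the gene end, where transcription that fails to terminate would run on, was also less covered. Of 8 genes with a known strand, CSTF2 had no region there in any library, and of the 7 tested PCF11, CPSF3, CPSF4 and CSTF1 had both 1 h libraries below both unstressed ones, beside 37.9% of 13814 genes tested. limma called 1451 genes (10.5%) lower and 160 (1.16%) higher, among them CSTF1 and CPSF3 as lower. With each library scaled to its mean the balance turned, with 147 genes lower and 389 higher, and none of the 9 was called. The median difference was -48.3 points over the 7 genes and -9.8 points over all genes tested.

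Past CSTF1, coverage was 0.0 and 9.5% at 1 h and 87.6 and 88.0% without stress (-83.0 points, SE 7.7, adjusted p 0.0228 by limma). All of it came from regions with -log10 q under 1.3, CASS4 lies 5674 bp past the gene, and without either unstressed library the call was lost (adjusted p 0.116 by limma in both fits). Past CPSF3, coverage was 25.4 and 24.9% at 1 h and 100.0 and 95.7% without stress (-72.7 points, SE 7.9, adjusted p 0.0267 by limma), and this flank holds IAH1. That call was lost without replicate 1 at 1 h (adjusted p 0.0585 by limma). Past PCF11 it was 0.0 and 9.8% at 1 h and 57.7 and 77.3% without stress (-62.6 points, SE 11.5, adjusted p 0.0646 by limma), and ANKRD42 begins 6261 bp on. In the 5 kb next to the PCF11 gene end, which end before ANKRD42, the difference was -90.8 points and was called (adjusted p 0.0254 by limma). Past CPSF4 the replicates at 1 h split, with 0.0 and 73.7% at 1 h and 89.0 and 81.4% without stress (adjusted p 0.428 by limma), and without replicate 2 at 1 h the gap was -85.2 points (adjusted p 0.0429 by limma).

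No gene in the series was called in the 10 kb before the start by limma, 0 of 14169, although 3074 had an unadjusted p under 0.05. CPSF2, CSTF2 and CSTF3 had both 1 h libraries below both unstressed ones, beside 33.1% of all genes. CSTF3 had 0.0 and 0.0% at 1 h and 7.5 and 20.6% without stress, and CSTF2 0.0 and 0.0% at 1 h and 6.3 and 6.6% without stress, which for both is the part of the start region that extends upstream. The other 5 genes overlapped between groups. CSTF1 had 34.1 and 8.7% at 1 h against 56.3 and 25.9% without stress, and PCF11 30.5 and 3.8% at 1 h against 27.5 and 18.2% without stress.

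**Figure D3:**
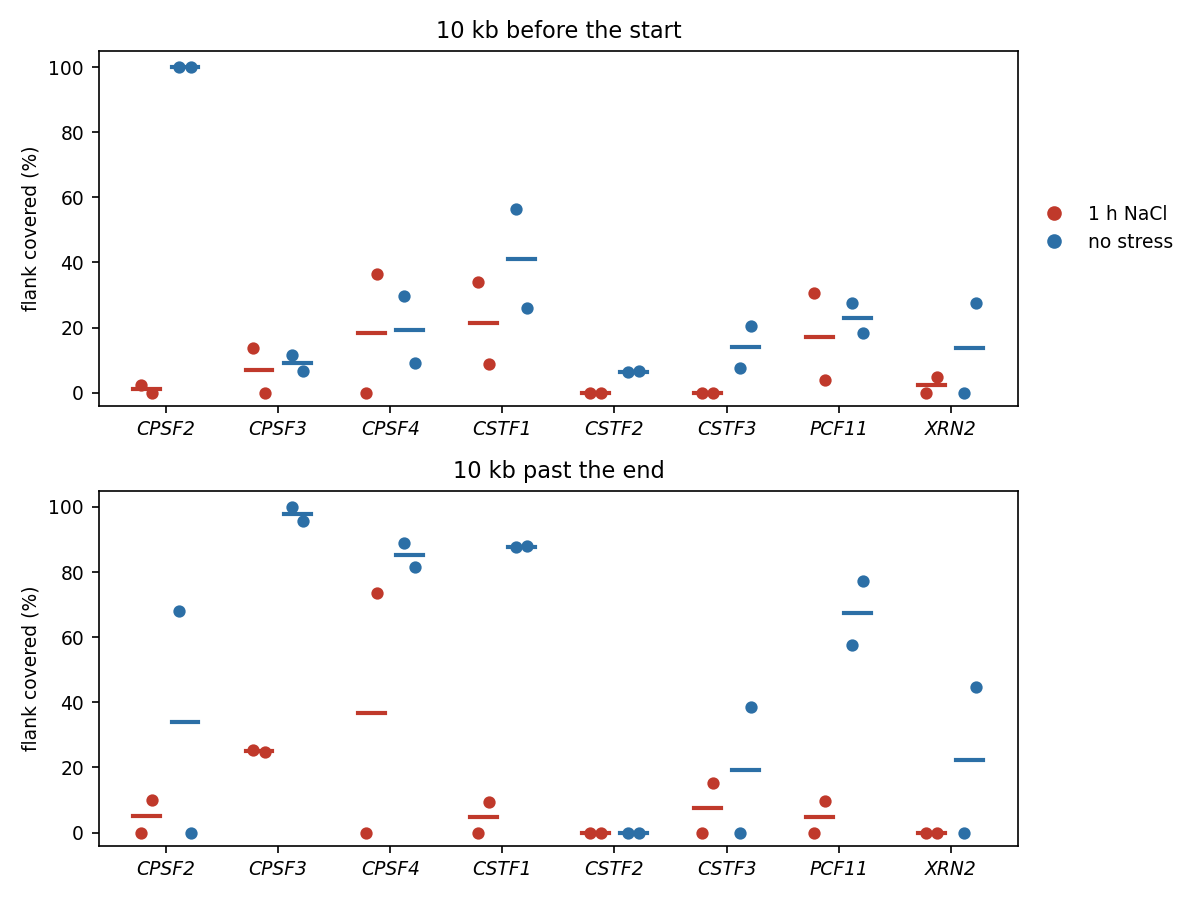
Percent of the 10 kb before the start (upper panel) and of the 10 kb past the end (lower panel) covered by Pol II regions, for the 8 genes with a known strand, with the 1 h NaCl libraries (red) left of the unstressed libraries (blue), 1 point per library and a bar at the mean of 2. CPSF2 stands out before the start (2.4 and 0.0% at 1 h, 100.0 and 100.0% without stress) and CSTF1, CPSF3 and PCF11 past the end.

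Other genes of the same machinery mostly lay on the same side. Of 25 further genes for cleavage, polyadenylation and termination, 24 had a region in some library, 18 had both 1 h libraries below both unstressed ones over the span and 2 above, beside 38.8 and 17.7% of all genes. There limma called 3 lower, CPSF7 and RBBP6 among them, and 0 higher, beside 6.01 and 0.948% of all genes. Their median difference was -41.5 points. CPSF7, a subunit of cleavage factor I, had 0.0 and 6.6% at 1 h and 100.0 and 96.0% without stress (-94.7 points, adjusted p 0.0284 by limma). RBBP6, a large ubiquitin ligase that joins the cleavage complex, had 11.8 and 16.6% at 1 h and 100.0 and 100.0% without stress (-85.8 points, adjusted p 0.0296 by limma).

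The 2 genes on the other side were CSTF2T and ZC3H4. CSTF2T, the intronless paralogue of CSTF2, had 26.3 and 30.8% at 1 h and 0.0 and 0.0% without stress (28.5 points, adjusted p 0.0607 by limma). ZC3H4, a restrictor of non-coding transcription, had 100.0 and 100.0% at 1 h and 93.4 and 76.5% without stress (15.0 points, adjusted p 0.412 by limma). Neither was called. Past the gene end limma called 4 of 22 lower and 0 higher, beside 10.5 and 1.16% of all genes. Among them were WDR82, a partner of histone methyltransferases and of a Pol II phosphatase complex (0.0 and 18.5% at 1 h, 100.0 and 100.0% without stress, adjusted p 0.0291 by limma), and TTF2, a termination ATPase (3.5 and 13.1% at 1 h, 84.0 and 75.2% without stress, adjusted p 0.0309 by limma). PPP1R10, the scaffold of that phosphatase complex, with 62.7 and 78.4% at 1 h and 0.0 and 37.6% without stress, was above both unstressed libraries at 1 h without a call (adjusted p 0.171 by limma).

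The Integrator complex, which cuts nascent RNA at small nuclear RNA genes and promoter-proximal Pol II, had genes on both sides. Of its 14 genes, 7 had both 1 h libraries below both unstressed ones over the span, where 38.8% of all genes did. Above both lay 1 gene, beside 17.7% of all genes, and the median difference was -9.2 points. INTS12 had 23.6 and 3.4% at 1 h and 100.0 and 100.0% without stress (-86.5 points, adjusted p 0.0465 by limma). It was the 1 gene of the 14 called, beside 6.01% of all genes called lower. INTS6 had 100.0 and 97.1% at 1 h and 74.2 and 43.4% without stress (39.7 points, adjusted p 0.199 by limma). Past its end INTS6 had 100.0 and 100.0% at 1 h and 0.0 and 0.0% without stress (adjusted p 0.021 by limma), and INTS2 100.0 and 100.0% at 1 h and 25.5 and 36.0% without stress (69.3 points, adjusted p 0.0334 by limma). Both were called higher there, beside 1.16% of all genes, a direction in which none of the 7 tested genes of the 9 was called.

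**Figure D4:**
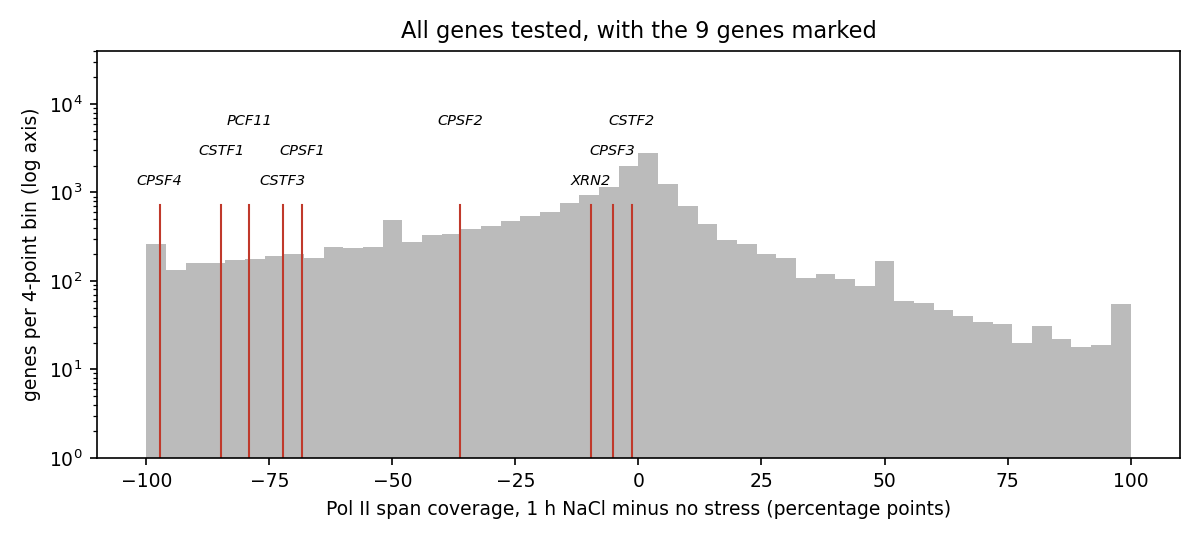
Histogram of the difference in Pol II span coverage, 1 h NaCl minus no stress, in percentage points for the 18144 genes tested, on a log axis of genes per bin, with the 9 genes as red lines. CPSF4, CSTF1, PCF11, CSTF3 and CPSF1 lie between -97.3 and -68.4 points and CPSF2 at -36.3, while XRN2, CPSF3 and CSTF2 lie between -9.6 and -1.4.

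Likeness was measured as the Euclidean distance over 12 values (span, upstream and downstream coverage in the 4 Pol II libraries) to 15770 other genes. The genes closest to the median of the 8 genes with a known strand were COMMD3 (distance 21.1), EIF3K (22.0), AASDHPPT (22.8), ZNF197 (25.0) and the read-through gene COMMD3-BMI1 (25.4). COMMD3 had 0.0 and 14.7% of its span covered at 1 h and 70.0 and 51.5% without stress. Closest to PCF11 were C11orf58 (32.0), DHX9 (38.7) and TINF2 (38.9), and closest to CSTF3 were SH3BP4 (21.8), ZNF254 (27.3) and LOC102723553 (28.0). CSTF1 had SOD3 (29.8), CPNE1 (30.3) and SERBP1 (33.5) as neighbours in this sense, CPSF4 had NOTCH2NLA (34.0), CFAP298 (43.0) and MAFF (47.4), and CPSF2 had HCLS1 (35.6), C17orf75 (38.0) and TMCO1 (42.0). CSTF2, with next to no coverage, lay 1.9 from UPRT, RBMX2 and SH3BGRL, all on chromosome X. XRN2 lay closest to ZNF525 (14.6), SFT2D1 (18.1) and NUP155 (18.7), and CPSF3 to IPP (10.7), NWD2 (23.2) and AXL (23.8).

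CTCF peaks were fewer in the windows of these genes at 1 h in the lists as deposited, which were also shorter at 1 h. With the same number of strongest peaks taken from every list the direction turned, with 11 peaks in all at 1 h and 7 without stress. The 9 windows (span plus 10 kb on each side) together held 6, 5 and 6 CTCF peaks at 1 h and 11, 8 and 10 without stress. Within set 1 there were 6 and 5 at 1 h and 11 and 8 without stress, and within set 2 there were 6 at 1 h and 10 without stress. Over time there were 11, 8 and 10 peaks without stress, 6 and 4 at 7.5 min, 3 at 30 min and 6, 5 and 6 at 1 h. The recovery library, of set 2, held 10. In all, the set 1 lists held 36962 and 31074 peaks at 7.5 min and 26737 at 30 min, and the recovery list 46377. The triptolide libraries held 6 without stress, 5 at 1 h and 8 in recovery, in lists of 41718, 20678 and 34517 peaks. The part of list length in these counts was not tested.

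By gene, 7 of the 9 windows held a CTCF peak in some library compared, and in none did the 1 h libraries all lie below or all above the unstressed ones, beside 7.92% of 17037 genes that lay below and 0.00587% above. With libraries paired by number, 3278 of those genes were lower in every pair and still none of the 9. PCF11 and CSTF2 had no CTCF peak in any of the 13 lists. The smallest p that 3 against 3 libraries can give in the exact permutation test is 0.1, so no gene could pass 0.05. CPSF1 had 1, 1 and 1 peaks at 1 h and 2, 1 and 5 without stress (exact permutation p 0.4, 2-sided, adjusted 1.0), and CPSF3 0, 0 and 1 at 1 h and 2, 0 and 2 without stress (exact permutation p 0.4, adjusted 1.0).

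Individual sites were merged from overlapping peaks of all lists. Over the genome, 57.1% of the 25596 CTCF sites found in all unstressed libraries had a peak in all 1 h libraries, and 5.85% had a peak in none of them. The windows held 3 such sites, in CSTF1, CPSF4 and CPSF1, and all 3 were kept in every 1 h library. Without the unstressed replicate 3 there were 8 shared sites, of which 3 were in no 1 h library. Over the genome, 22.8% of the sites shared under that setting were in no 1 h library.

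The site inside CSTF1, 7.84 kb from its start, was present in all 13 CTCF lists. Its deposited fold was 43.0, 43.5 and 7.4 at 1 h and 43.9, 31.3 and 5.8 without stress, where the third value of each group is set 2. It ranked between the 93.6 and the 98.3 percentile of its list in the 7 libraries of set 1, and between the 44.3 and the 70.5 percentile in the 6 of set 2. Lists differ in length, so these ranks describe each list and were not compared between conditions.

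The site inside CPSF4, 9.17 kb from its start, was in 12 of 13 lists and missing at 30 min. Its fold was 12.9, 2.7 and 4.4 at 1 h and 19.7, 5.9 and 10.5 without stress, lower at 1 h in each of the 3 same-numbered pairs. In set 2 it had a fold of 13.3 in recovery, 12.8 with triptolide and no stress, 3.2 with triptolide and 1 h of NaCl and 7.6 with triptolide and recovery. The fold is the authors' own value for each peak and is not scaled between lists, so the order was not tested.

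The site at CPSF1 lies 16.3 kb from the lower coordinate, at the other edge of the gene, and carried both CTCF and RAD21. CTCF was present in 11 of 13 lists, all except replicate 2 at 7.5 min and the 30 min library. RAD21 was present in 9 of 12 lists, including all unstressed and all recovery libraries, but at 1 h in replicate 2 alone, with a fold of 3.1. The RAD21 fold was 6.3, 18.6 and 3.1 in recovery and 13.2, 13.0 and 5.6 without stress. In same-numbered unstressed libraries the CTCF and RAD21 summits were 37, 32 and 36 bp apart, and 0 bp apart in replicate 2 at 1 h.

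RAD21 was sparse over these genes. The windows held 1, 2 and 1 RAD21 peaks in recovery, 0, 1 and 0 at 1 h and 2, 4 and 2 without stress. In recovery or at 1 h, 2 of the 9 windows (CPSF1 and XRN2) held a peak, and in neither did all recovery libraries lie above all 1 h libraries, beside 1.89% of 10943 genes that did and 0.0548% the other way. Those shares turn on 1 library: without replicate 2 of recovery, 207 genes were higher in recovery and 352 lower. At 1 h or without stress, 4 of the 9 windows held a peak, and in none did all 1 h libraries lie below all unstressed ones, beside 24.4% of 12314 genes. CPSF1 had 0, 1 and 0 peaks at 1 h and 1, 1 and 1 without stress (exact permutation p 0.4, 2-sided, adjusted 0.694). In set 1 alone, where 2 libraries face 2, the windows held 0 and 1 peaks at 1 h and 2 and 4 without stress, and in set 2 alone 0 at 1 h and 2 without stress. Genome-wide, 34.5% of the 10098 RAD21 sites present in all unstressed libraries were in every 1 h library and 32.4% in none, and the CPSF1 site belonged to neither class. With the same number of strongest peaks taken from every list, that site was in no 1 h library.

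**Figure D5:**
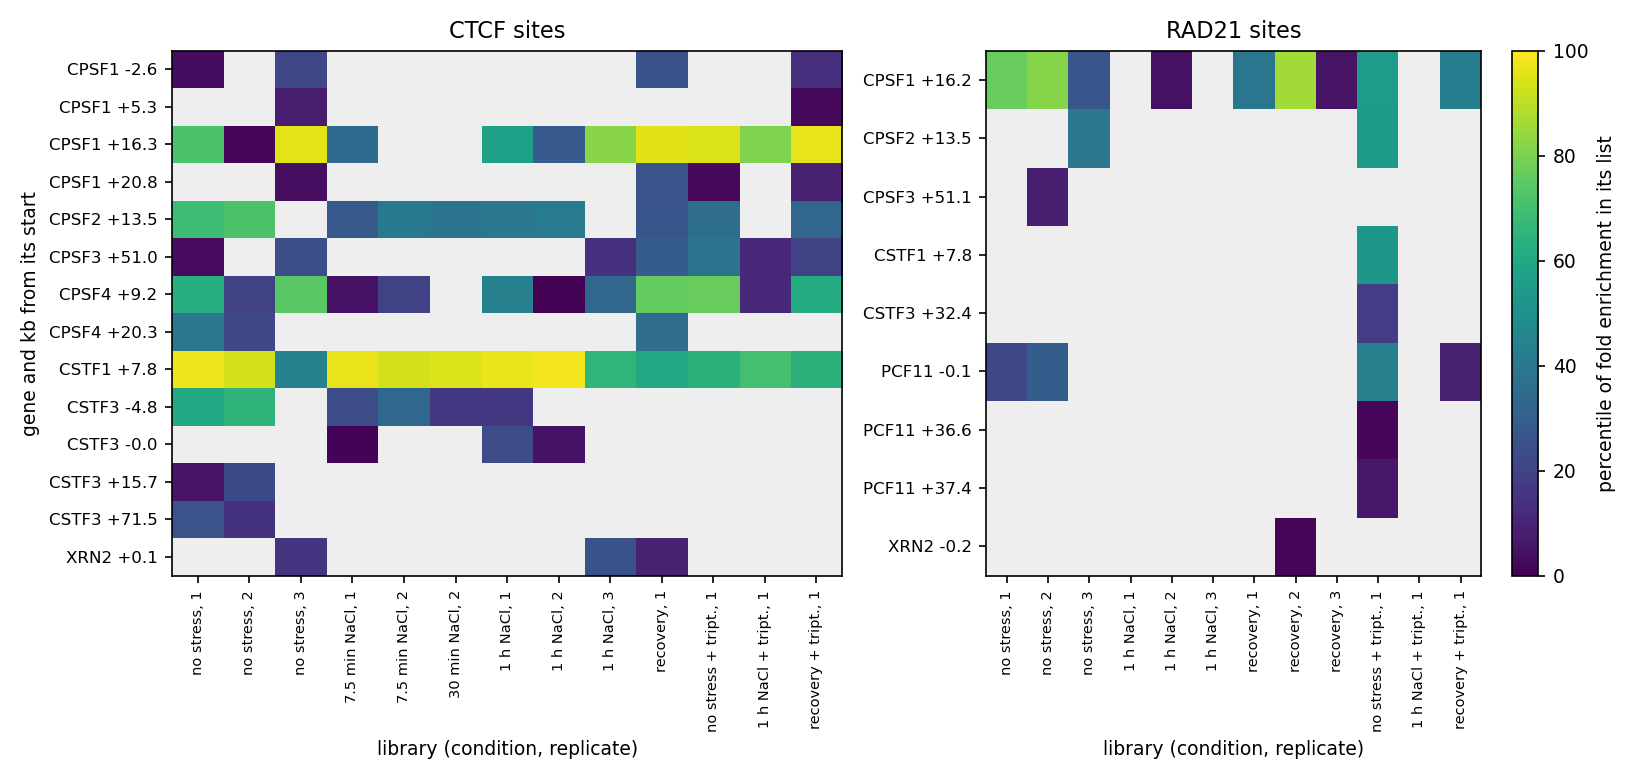
CTCF sites found in at least 2 lists (left) and all RAD21 sites (right) in the windows of the 9 genes, by library, with the percentile of the peak's deposited fold in its own list as colour (not comparable between lists of different length) and grey where no peak was called. CSTF1 at 7.8 kb is filled in all 13 CTCF columns, and RAD21 at CPSF1 is filled in the unstressed and recovery columns and in 1 of 3 columns at 1 h.

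At gene starts the 2 proteins were seen in a few lists each. At the start of CSTF3 a CTCF peak was called in replicate 1 and replicate 2 at 1 h, with folds of 7.3 and 3.8, and in replicate 1 at 7.5 min with a fold of 2.8. No unstressed library and no library of set 2 had it. It covered 157 and 151 of the 250 bases printed above at 1 h, a window in which the CTCF core motif does not occur, and the fold stood at the 23.4 and 4.7 percentile of the 1 h lists, so it was among their weaker peaks. In set 1 the neighbouring CTCF site 4.8 kb before the CSTF3 start had a fold of 5.9 in replicate 1 and no peak in replicate 2 at 1 h. Without stress its folds were 18.5 and 15.8, and set 2 had it in no library.

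At the start of XRN2 a CTCF peak was present in set 2 at 1 h (fold 3.9), in recovery (3.4) and without stress (3.5), and in no library of set 1. It covered 103, 104 and 62 of the printed bases in these libraries. The CTCF site 13.5 kb into CPSF2 was in 10 of 13 lists, with folds of 11.6 and 9.1 at 1 h and 22.3 and 18.4 without stress in set 1, and was called in neither replicate 3 library, at 1 h or without stress. RAD21 was called at the CPSF2 site in the unstressed replicate 3 (fold 6.8) and in the unstressed library with triptolide (8.5), and in none of the 1 h libraries.

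RAD21 peaks near the start of PCF11 occurred in unstressed libraries and not at 1 h. Replicate 1 without stress had a peak 596 to 319 bp before the start with a fold of 5.9, and replicate 2 had a pair, 1315 to 1084 bp before and 108 to 352 bp after the start, both with a fold of 5.5. The peaks of the 2 replicates do not overlap each other. Neither set 2 without stress, nor any 1 h or recovery library without triptolide, had a peak in the PCF11 window. CPSF4 and CSTF2 had no RAD21 peak in any of the 12 lists.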

How the data were processed

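ChIP-seq for 3 proteins (CTCF, RAD21, Pol II) in T47D cells gave 29 deposited peak lists, 1 per library (13, 12 and 4), among 41 samples, of which 12 inputs have none. Per the submitters' processing notes the reads were aligned to hg38 with Bowtie2 2.2.6, with cutadapt, MACS2 and HOMER also named, and DiffBind 2.4.6 and DESeq2 for set 1. In the deposited lists each peak has the authors' fold enrichment (a ratio), the authors' -log10 p and -log10 q and a score from the caller. The score was not used, and 0 pairs of lists were identical. The fold ranks peaks within a list and is not scaled between lists. Folds printed side by side from different libraries are therefore descriptions, and their differences were not tested.

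Gene spans came from RefSeq GRCh38.p14, and strand from its promoter table, in which 15811 of 19970 protein-coding genes were found. The percent of bases covered was computed per library and tested with limma 3.58.1 (R 4.3.3, trend and robust) for 2 libraries against 2, with no covariate, over all genes with a mean above 0, with Benjamini-Hochberg adjustment and a threshold of 0.05. In 2 against 2 libraries the exact permutation test cannot go below 0.333. CTCF and RAD21 peaks that overlap a window by at least 1 bp were counted in Python 3.11.15, and groups were compared by whether all their libraries lie apart and by 2-sided exact permutation tests. Tested on simulated data, limma recovered 140 of 200 genes changed by 80 points among 16521 and called 0 when none was changed. All 4 simulated libraries were drawn around the unstressed means with the unstressed spread, and the changed genes began near full or near no coverage. The spread between 1 h libraries and the differing coverage of the lists were not simulated, so their part in the calls above was not tested.

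Same-numbered 1 h and unstressed CTCF libraries deviated together (correlations of deviations from the group means 0.188, 0.514 and 0.475 over 17037 genes). Both replicate 3 libraries are of set 2, and libraries of different number were not compared. Whether the numbers pair libraries beyond the set was therefore not tested, and the labels do not say so. The series text gives 100 mM NaCl where titles give 110 mM. Replicate tags of the 30 min CTCF library and of the Pol II replicate 2 libraries differ from their titles, which were followed. The genes and gene lists were chosen with earlier results of these data known. Companions were named by rule: the 4 genes of both lists furthest apart in each direction, of those whose libraries do not overlap. One gene named by this rule is not reported here. Promoter sequences came from the RefSeq table.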

Additional observations from a re-analysis of the deposited data

Results flagged for a closer look

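RAD21 peaks in the 1 library of unstressed cells with triptolide were flagged, since no comparison above uses that library and its counts exceed those of every unstressed library without triptolide. The 9 windows held 7 RAD21 peaks there, against at most 4 without triptolide. PCF11 had 3 of them, against at most 2. One lies across the start, from 1207 bp before to 1150 bp after it, has a fold of 6.7 and covers all 250 printed bases, and the others lie 36365 to 36877 and 37135 to 37582 bp from the start, past the gene end. CSTF1 had 1 RAD21 peak, over its CTCF site, and CSTF3 had 1, 32.4 kb into the gene, where no unstressed library without triptolide had any (0 in each). The list held 40969 peaks, against 13762 to 24931 without triptolide, and 73.1% of all genes had a peak in their window there, against 42.8 to 53.4%. The part of list length in these counts was not tested, and a single library gives no test. After triptolide, the 1 h library held 0 peaks in the 9 windows and the recovery library 2.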

How the results depend on the processing

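Over the span, 86 of 87 values of single genes under other settings stayed lower at 1 h. The exception was CSTF1 with regions of -log10 q of at least 1.3, at 3.4 points. Of the 9 genes, 5 then had both 1 h libraries below both unstressed ones, and 17 of all genes were called higher. On the arcsine scale 1 of the 9 was called, and with each library scaled to its mean 0 of the 9 and of all genes in either direction. Without the filter on low values 1665 genes were lower and 459 higher. Where 1 library is left out, genes at 0 or 100% in the remaining pair have almost no spread, so such calls are no sign of stability. This gave 1638 to 2081 lower and 174 to 2290 higher.

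Past the end, genes called lower and higher numbered 543 and 71 on the arcsine scale (0 of the 9). They numbered 655 lower for 20 kb (1 of the 9) and 2185 and 263 for 5 kb. In flanks without another gene they numbered 399 and 76. Of the 9, that setting keeps CPSF2 and CSTF3 alone, and 0 were called or had groups apart. Neither was called or apart in the main fit, and the setting cannot test the others. Without the filter the genes numbered 3 and 9 (0 of the 9). With the q threshold 24 were higher (1 of the 9 lower). Scaled to the mean they numbered 147 and 389 (0 of the 9). Leaving out 1 library gave 263 to 2166 higher and 1 to 3 of the 9 lower. Before the start they numbered 354 and 135 for 20 kb, 253 and 42 for 5 kb (1 of the 9, 5 with groups apart), 37 and 5 without the filter (1 of the 9) and 579 and 18 with the q threshold. Leaving out 1 library gave 920 to 1780 lower, 197 to 2012 higher, 1 to 3 of the 9 called and 4 to 6 apart.

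For CTCF, 2 of the 9 genes were lower within set 1, beside 3897 of all genes (23.87% of those tested). Within set 2, 2 of the 9 were lower, beside 10143 genes (67.29%), and 1 was higher, beside 627 genes (4.16%). Set 2 has 1 library against 1 there, so any difference in count sets the groups apart. The same number of strongest peaks gave 337 genes lower, and leaving out 1 library gave 0 to 2 of the 9 and 1367 to 4038 genes. For RAD21, 1 of the 9 was lower within set 1, beside 35.84% of genes tested. Within set 2, again 1 library against 1, 2 of the 9 were lower, beside 8771 genes (82.23%). The same number of strongest peaks gave 1 of the 9 lower (279 genes), and the span alone gave 1829 genes. Leaving out 1 library gave 0 to 1 of the 9 and 3054 to 4956 genes. Higher in recovery were 454 genes within set 1 (4.17% of those tested). Within set 2, also 1 library against 1, 1606 genes were higher (30.06%, 1 of the 9) and 25.02% lower. The same number of strongest peaks gave 1 of the 9 higher. Leaving out 1 library gave 207 to 768 genes and 0 to 1 of the 9 higher, and 6 to 352 genes lower. With the same number of strongest peaks, 0 CTCF sites in the windows were shared by all unstressed libraries, 0 were kept, and 1 RAD21 site was lost. Leaving out 1 library gave 3 to 8 shared CTCF sites, 0 to 3 lost, beside 5.9 to 22.8% lost over the genome. It gave 0 to 1 RAD21 sites lost, beside 33.2 to 48.2% over the genome.

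With the replicate number as a block, 0 genes were called over the span (3420 at an unadjusted p under 0.05 by limma) and 0 past the end (2940), none of the 9 among them, while the block gave 3278 genes lower for CTCF and 449 higher for RAD21 in recovery. For Pol II (correlation 0.043) and RAD21 (-0.029, 0.174 and 0.128) the libraries share only a number. Whether the numbers pair libraries beyond the set was not tested for any of these proteins. None of these block results therefore stands for a pairing. The cause of none of these changes was tested. Read depth is not given in the sources used here, so whether a missing region reflects depth cannot be told apart from a change.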
